A study of Mus musculus with 8 samples.

Results

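The mouse embryonic stem cell (mESC) lines ESF122 and ESF175/1 were compared gene by gene with RNA-seq of polyadenylated RNA. The comparison covered the 11328 genes that reached at least 1 FPKM in at least 2 of the 4 mESC libraries, out of 22987 genes whose symbol stood at 1 locus in the deposited tables. FPKM counts sequenced fragments per kilobase of a transcript, in proportion to all mapped fragments of the library. ESF122 was sequenced as replicates 1 and 2, and ESF175/1 as replicates 3 and 4. Both lines were grown in the same way, in Knockout DMEM with serum replacement and the cytokine LIF on irradiated mouse embryonic fibroblasts, and were taken off these feeder cells before RNA was extracted. The labels give no strain, genotype, sex, age or passage for either line. The series also holds 4 libraries of epiblast stem cells (mEpiSC) from the lines EpiSC5, EpiSC7 and EpiSC9, grown with FGF2 on the same feeders, which are used here only as a reference level. Whether the libraries of a line are separate cultures is not stated, so p-values below reflect the scatter of these libraries alone, and that scatter may be technical.

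Mouse embryonic stem cells in LIF represent the naive state of the early epiblast, held by a network of transcription factors such as Esrrb, Klf4, Tbx3 and Prdm14 around the core factors Pou5f1, Sox2 and Nanog. LIF acts through its receptor and STAT3 on this network, while FGF and ERK signalling moves cells towards the primed epiblast, where Otx2, Fgf5 and the DNA methyltransferase Dnmt3b are high. Separate lines can differ in genotype, in how far single cells have drifted towards priming, in imprinting, in chromosome content and in retroviral insertions, and germ cell genes are known to be sensitive to DNA methylation in these cells.

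All 4 libraries carried the markers of the label. Zfp42, a zinc finger factor used as a mark of naive cells, was at 96.0 and 85.9 FPKM in ESF122 and at 171 and 167 FPKM in ESF175/1, and did not pass 0.491 FPKM in any mEpiSC library. Pou5f1, the core factor shared by both states, was at 504 and 510 FPKM in ESF122 and at 446 and 570 FPKM in ESF175/1. Its difference was -0.01 ± 0.22 on the log2(FPKM + 1) scale (SE, 2 libraries a line), with a 95% interval from -0.54 to 0.53.

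The 2 libraries of a line were not always each other's nearest. Across the tested genes, replicates 1 and 2 correlated at r = 0.9705 and replicates 3 and 4 at r = 0.952 on the log2 scale, genes being no independent replicates. Replicate 1 of ESF122 and replicate 3 of ESF175/1 correlated at 0.9623, above the value within ESF175/1, and their median absolute difference of 0.149 was below those within the lines, 0.167 and 0.292. Replicate 4 was the library farthest from the rest, with 489 genes (4.32%) at least 2-fold away from replicate 3 and 956 to 1101 genes from the ESF122 libraries. The implied depth was 24800000 to 38300000 fragments, and 10947 to 11293 entries reached 1 FPKM.

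Differences are given as ESF175/1 minus ESF122 on the log2(FPKM + 1) scale, which understates the change of low genes. With limma and Benjamini-Hochberg adjustment over all 11328 genes, 20 genes (0.177%) were higher and 22 genes (0.194%) were lower in ESF175/1 at an adjusted p under 0.05, and each of these 42 (0.371%) differed by at least 2-fold. At an unadjusted p under 0.05 there were 1385 genes (12.2%). A second count, with no test, took genes at least 2-fold apart in every pair of libraries from the 2 lines, so that 1 library alone could not carry them. It held 70 higher genes (0.618%) and 81 lower genes (0.715%), all 42 tested calls among them. Both ESF175/1 libraries stood above both ESF122 libraries in 2224 genes (19.6%) and below them in 2793 genes (24.7%), and the median difference over all genes was -0.01.

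For 8513 genes (75.2%) the 95% interval of the difference lay within 2-fold in either direction. Among the most abundant of these were the chaperone Hsp90ab1, the cytoskeletal actin Actb, the ribosome scaffold Gnb2l1 and the ferritin light chain Ftl1. Actb was at 1374 and 1397 FPKM in ESF122 and at 1326 and 1548 FPKM in ESF175/1, a difference of 0.05 with an interval from -0.48 to 0.58. At the edge of the expression filter stood Calb2, whose second highest library had 1.00022 FPKM, and Fitm1, left out at 0.998344 FPKM. The filter was passed through ESF175/1 alone by 118 genes and through ESF122 alone by 222 genes. Of the tested calls, 7 of the 20 higher and 6 of the 22 lower genes had passed in this way, so those genes had to differ to some extent. They were Rpl3, Rpl21, Apoa2, Akr1e1, Pde3a, Pnp2 and Nckap1l among the higher genes and Mir7-1, 2610037D02Rik, BC052688, Enpp2, Spon1 and C1qtnf6 among the lower.

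The 3 largest increases among the calls were in ribosomal protein genes. Rps2, a protein of the small ribosomal subunit (mm9, chr17:24857008-24858872), was at 2.01 and 1.61 FPKM in the ESF122 libraries and at 241 and 227 FPKM in ESF175/1. The line difference was 6.39 ± 0.18 (SE), a ratio of mean FPKM of 129, with an adjusted p of 0.0002 in limma. Rps18, another small subunit protein (chr17:34088944-34092586), had 1.24 and 0.983 FPKM against 78.9 and 161 FPKM. Rpl3, a large subunit protein (chr15:79908211-79913836), had 0.818 and 0.912 FPKM against 57.0 and 46.7 FPKM. The lines did not overlap in any of these genes, and the ESF175/1 libraries of Rps18 were over 2-fold apart. Ribosomal proteins are made in every growing cell.

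Further genes of protein synthesis stood beside them. Rps26 (chr10:128061585-128063562) was at 44.9 and 49.2 FPKM in ESF122 and at 445 and 571 FPKM in ESF175/1, a difference of 3.39 ± 0.21 with an adjusted p of 0.0039 in limma. Rpl21 was at 0.897 and 0.912 FPKM against 12.4 and 20.0 FPKM. Eif4a1, an RNA helicase of translation initiation, was at 8.87 and 12.6 FPKM against 63.6 and 84.5 FPKM. Srp9, a subunit of the signal recognition particle, was at 4.22 and 4.70 FPKM against 28.6 and 47.4 FPKM. Their adjusted p-values in limma were 0.013, 0.02 and 0.022. All 7 of these genes kept an adjusted p under 0.05 in limma after a correction for transcript length, without replicate 2 and without replicate 4, but Rpl3 and Rpl21 had entered the test through ESF175/1 alone.

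These genes share sequence with other transcripts. The share of a gene's 50-base windows found in other genes' transcripts too was 71.3% for Rps2, 58.4% for Rpl3, 33.6% for Rps18, 33.3% for Eif4a1, 26.2% for Rpl21, 21.3% for Srp9 and 12.3% for Rps26. Of the 20 higher calls, 8 had a share of at least 20%, and of the 22 lower calls 2 had. The share was not computed for all tested genes, so these counts have no background to be read against. How reads from such windows were divided is not given in the sources used here, so the levels of these genes are uncertain, and the part of shared sequence in the line difference was not tested. Gapdh, a glycolytic enzyme abundant in growing cells, has a share of 27.8% and was listed at only 0.882 to 1.66 FPKM in all 4 libraries, with a line difference of -0.05. The mEpiSC libraries, 4 from 3 other lines, had 221 to 467 FPKM of Rps2, 87.4 to 187 FPKM of Rps18 and 333 to 548 FPKM of Rps26, on the side of ESF175/1. For Rpl3 they had 0.576 to 0.759 FPKM, on the side of ESF122.

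Other genes higher in ESF175/1 were little or not affected by shared sequence. Cyct, the cytochrome c of the testis (chr2:76192000-76198505), was at 8.07 and 4.66 FPKM in ESF122 and at 68.9 and 69.1 FPKM in ESF175/1, a difference of 3.29 ± 0.26 with an adjusted p of 0.011 in limma. Usp26, an X-linked ubiquitin protease of the male germ line (chrX:49107136-49154410), was at 4.09 and 1.72 FPKM against 32.8 and 32.4 FPKM, with an adjusted p of 0.022 in limma. Both had no shared window and stayed at or below 0.0582 FPKM in every mEpiSC library. Without replicate 4 their adjusted p in limma was 0.064 and 0.17, at differences of 3.29 and 3.18.

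Apoa2, an apolipoprotein of high-density lipoprotein (chr1:173155185-173156510), was at 0.134 FPKM in replicate 1 and listed at 0 in replicate 2 of ESF122, and at 10.1 and 14.8 FPKM in ESF175/1, with an adjusted p of 0.005 in limma. It was listed at 0 in all 4 mEpiSC libraries. Aim2, a sensor of cytosolic DNA (chr1:175350735-175396167), was at 4.21 and 3.87 FPKM against 22.3 and 17.9 FPKM, an adjusted p of 0.022 in limma. Stard3nl, a lipid-transfer related protein of late endosomes, was at 7.31 and 9.81 FPKM against 34.4 and 42.7 FPKM, an adjusted p of 0.031. Apoa2, Aim2 and Stard3nl passed with the length correction and without either replicate 2 or replicate 4, Apoa2 having entered the test through ESF175/1 alone.

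3 more higher calls were less firm. Rbpj, the DNA-binding factor of Notch signalling, was at 5.73 and 4.71 FPKM against 18.8 and 26.7 FPKM, and 24.3% of its windows are shared. Zfp951, a zinc finger gene, was at 1.82 and 1.49 FPKM against 9.51 and 7.28 FPKM. Hrsp12, a deaminase of reactive imines, was at 6.97 and 8.52 FPKM against 24.9 and 25.5 FPKM. Each had an adjusted p of 0.042 in limma. With the length correction it was 0.064, 0.074 and 0.047 for the 3 genes. Without replicate 2 the differences were 1.80, 1.73 and 1.72, a sign fixed by the lines not overlapping.

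**Figure D1:**
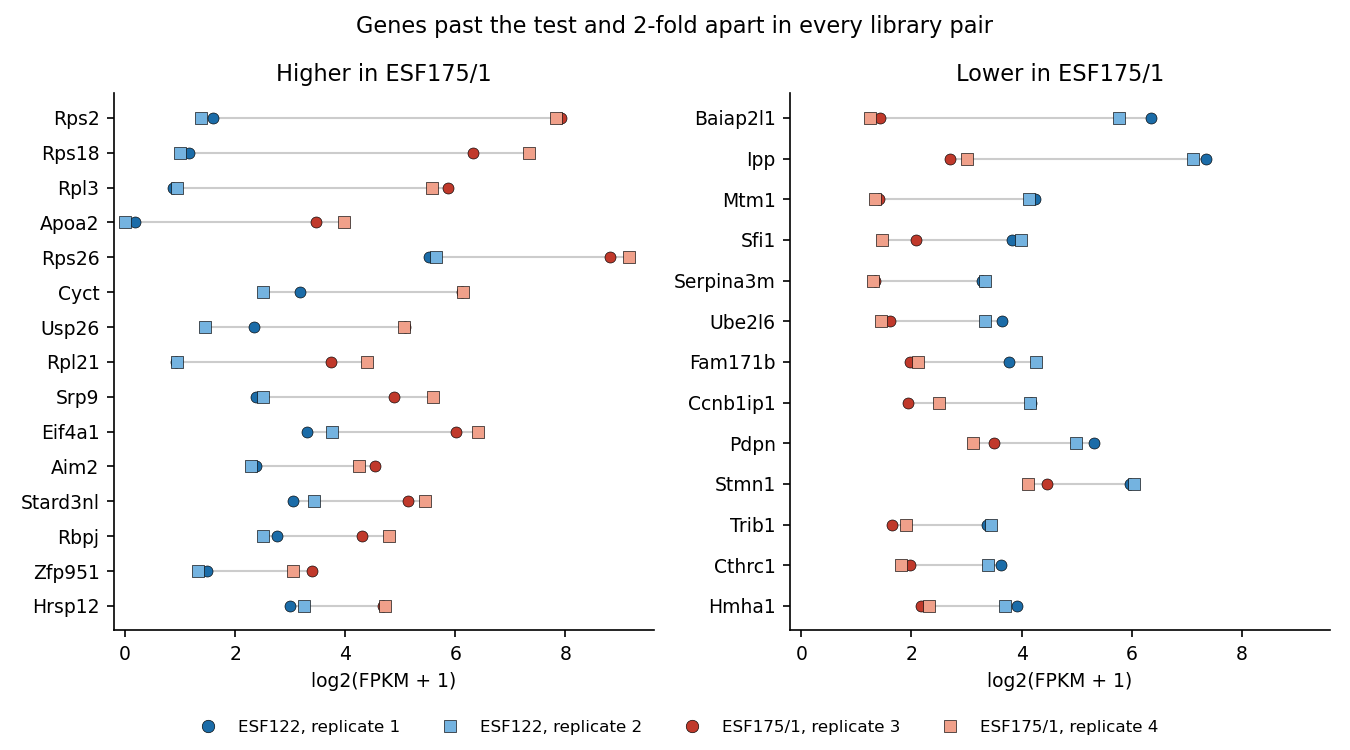
FPKM on the log2(FPKM + 1) axis of the named genes that passed limma's test at an adjusted p under 0.05, 15 higher (left) and 13 lower (right) in ESF175/1, with 1 point per library and a grey line over the range of the 4. The lines do not overlap in any row, with Rps2 and Baiap2l1 at the top of the panels as the widest separations.

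Among the lower genes, Baiap2l1 and Ipp stood apart. Baiap2l1, an adaptor that bends membranes and binds actin (chr5:145025394-145118981), was at 80.6 and 53.8 FPKM in ESF122 and at 1.68 and 1.37 FPKM in ESF175/1. Its difference was -4.73 ± 0.25, a ratio of mean FPKM of 44.0 in favour of ESF122, with an adjusted p of 0.0021 in limma. Ipp, a gene named for transcription from an intracisternal A particle, a mouse retrovirus-like element (chr4:116180154-116210840), was at 163 and 138 FPKM against 5.52 and 7.01 FPKM. Its difference was -4.39 ± 0.20, with an adjusted p of 0.0014 in limma. The mEpiSC libraries had 2.32 to 6.18 FPKM of Baiap2l1 and 6.42 to 11.5 FPKM of Ipp, so that ESF122 was the line apart from all other libraries. The share of windows in other transcripts was 2.28% for Baiap2l1 and 0% for Ipp.

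Mtm1, a phosphoinositide phosphatase encoded on the X chromosome (chrX:68463942-68568470), was at 17.9 and 16.5 FPKM against 1.65 and 1.51 FPKM, with an adjusted p of 0.0046 in limma. Its mEpiSC range was 0.975 to 1.21 FPKM. Serpina3m, a serine protease inhibitor, was at 8.76 and 9.14 FPKM against 1.54 and 1.47 FPKM, with an adjusted p of 0.022 in limma and 19% of windows shared with other transcripts. Baiap2l1, Ipp, Mtm1 and Serpina3m passed with the length correction, without replicate 2 and without replicate 4. No other of the 13 named lower genes passed all of these.

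The remaining named lower genes had adjusted p-values of 0.031 to 0.045 in limma. Sfi1, a centrin-binding protein of the spindle poles, was at 13.2 and 14.9 FPKM against 3.23 and 1.77 FPKM. Stmn1, stathmin, which destabilizes microtubules, was at 61.9 and 64.7 FPKM against 21.1 and 16.3 FPKM. Pdpn, the membrane mucin podoplanin, was at 38.9 and 30.7 FPKM against 10.3 and 7.65 FPKM. In each of them the lines did not overlap, but with the length correction the adjusted p in limma was 0.061, 0.075 and 0.082. Ube2l6, the conjugating enzyme of the interferon-induced modifier Isg15, was at 11.6 and 9.14 FPKM against 2.04 and 1.71 FPKM, and its adjusted p in limma was 0.061 with the length correction. Ccnb1ip1, a factor of meiotic crossing over, was at 17.0 and 16.9 FPKM against 2.81 and 4.63 FPKM. Fam171b, Trib1 (a pseudokinase), Cthrc1 (a secreted collagen-repeat protein) and Hmha1 had differences of -1.97, -1.64, -1.62 and -1.57. The 14 calls outside the naming rule included Mir7-1, chosen here after its values were seen, an entry of 108 bases at 1407 and 486 FPKM in ESF122 and listed at 0 in both ESF175/1 libraries. Its mEpiSC values ran from 0 to 550 FPKM. How well libraries of polyadenylated RNA measure so short an entry was not tested. Small RNA symbols made up 8 of the 81 lower and 0 of the 70 higher genes at least 2-fold apart in every pair. They were not counted over all tested genes. Of these, Snora62, Snord15b and Snora78 were listed at 0 in replicate 4 but not in replicate 3.

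Replicate 4 deviated with transcript length. Its median deviation from the mean of the 4 libraries went from 0.232 in the shortest quintile of genes to -0.17 in the longest, while replicate 3 went from -0.094 to 0.008. The line difference followed: its median was 0.148 in the shortest quintile, 0.004 in the middle quintile and -0.162 in the longest quintile. Across 11226 genes with a length, Spearman's rank correlation of the line difference with length was -0.289, and -0.049 without replicate 4. After a loess correction within each library, it was -0.006, a value that the correction itself brings near 0. Of 41 calls with a length, 23 then kept an adjusted p under 0.05 in limma, 15 higher and 8 lower. Without replicate 2, 28 of the 42 calls kept it, and without replicate 4, 31 did. Every call kept its direction in these 3 settings where it was tested. Leaving out a library could not turn it, since every call was at least 2-fold apart in every library pair.

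By chromosome, replicate 4 also stood apart. Relative to its median over all genes, its median deviation was 0.181 on chromosome 6 and 0.151 on chromosome 8, and between -0.055 and 0.041 on every other autosome and on X. The median line difference was 0.071 on chromosome 6 and 0.069 on chromosome 8, and without replicate 4 it was -0.10 and -0.07. The deviations of the other libraries were -0.036 to -0.087 on chromosome 6 and -0.121 to 0.042 on chromosome 8, where replicate 2 had the 0.042.

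**Figure D2:**
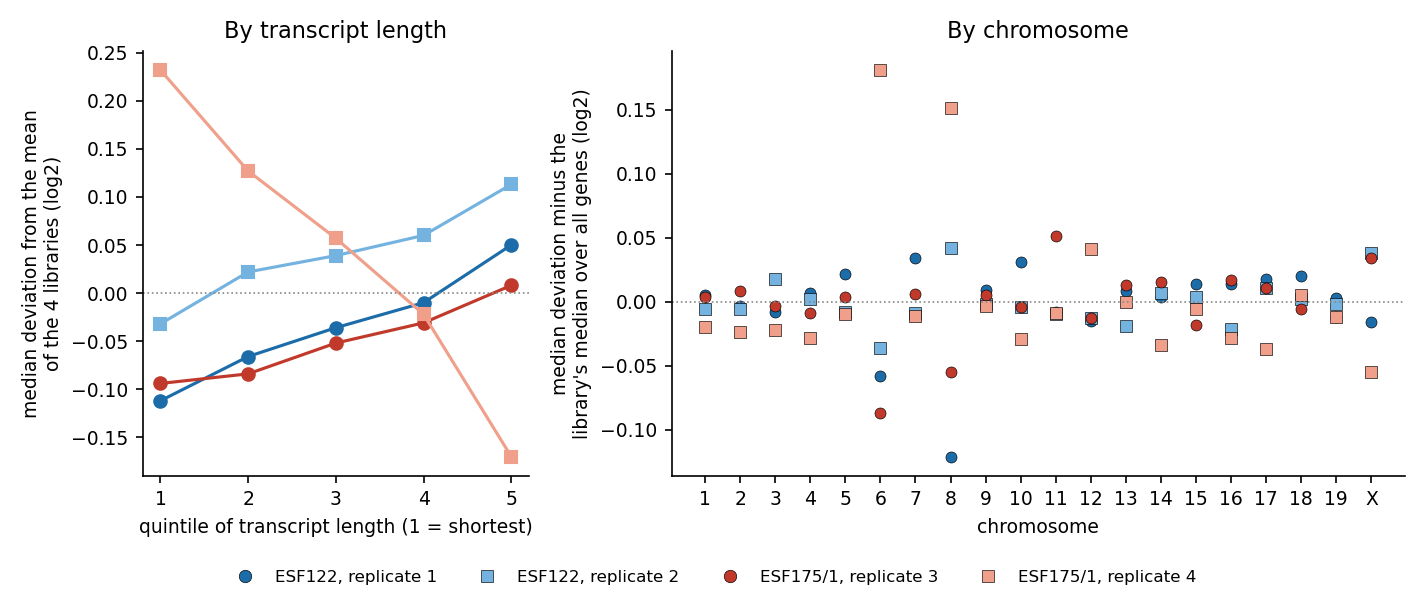
Median deviation of each library from the mean of the 4 mESC libraries on the log2 scale, by quintile of transcript length (left) and by chromosome after subtracting the library's own median (right). Replicate 4 runs from 0.232 to -0.17 over the length quintiles and lies highest on chromosomes 6 and 8.

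Of 28 gene lists for pathways and cell types, 27 held at least 4 tested members, and no list member passed limma's test at an adjusted p under 0.05 with all 4 libraries. The lists are therefore described by how many members had both ESF175/1 libraries on 1 side of both ESF122 libraries, against 19.6% higher and 24.7% lower over all genes, and by their median difference, against -0.01. The plot of list members shows 10 of them.

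Most naive factors were at higher levels in ESF175/1. Of 23 listed genes, all tested, 15 were above ESF122 in both libraries and 2 were below, and the median difference was 0.62. Esrrb, a nuclear receptor without a known natural ligand, was at 49.6 and 36.5 FPKM in ESF122 and at 76.1 and 72.7 FPKM in ESF175/1. Klf4, a Krüppel-like factor induced by STAT3, was at 13.1 and 8.11 FPKM against 20.9 and 23.6 FPKM. Tbx3 was at 3.53 and 2.07 FPKM against 5.42 and 7.12 FPKM, and Prdm14, which restrains FGF signalling and DNA methylation, at 1.72 and 2.03 FPKM against 3.19 and 5.80 FPKM. For these 4 genes the lines did not overlap, and the differences were 0.79 to 1.03 with adjusted p-values of 0.21 to 0.29 in limma.

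The lowest adjusted p of the naive list, 0.13 in limma, belonged to Tcl1, a co-activator of Akt, at 10.0 and 11 FPKM against 20.5 and 21.0 FPKM. The 2 genes below were the adhesion protein Jam2 and the lysosomal enzyme Manba. Jam2 was at 34.2 and 16.8 FPKM against 14.5 and 7.53 FPKM. The list's median stayed between 0.50 and 0.88 in all 15 other settings tried. Core factors were split, with 2 of 12 above, 3 below and a median of 0.06, which was 0.21 without replicate 3, -0.02 without replicate 2 and -0.03 without replicate 4. Nanog was at 76.4 and 117 FPKM against 107 and 128 FPKM, an overlap of the lines. Sox2 was at 111 and 68.7 FPKM against 153 and 132 FPKM, without overlap.

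**Figure D3:**
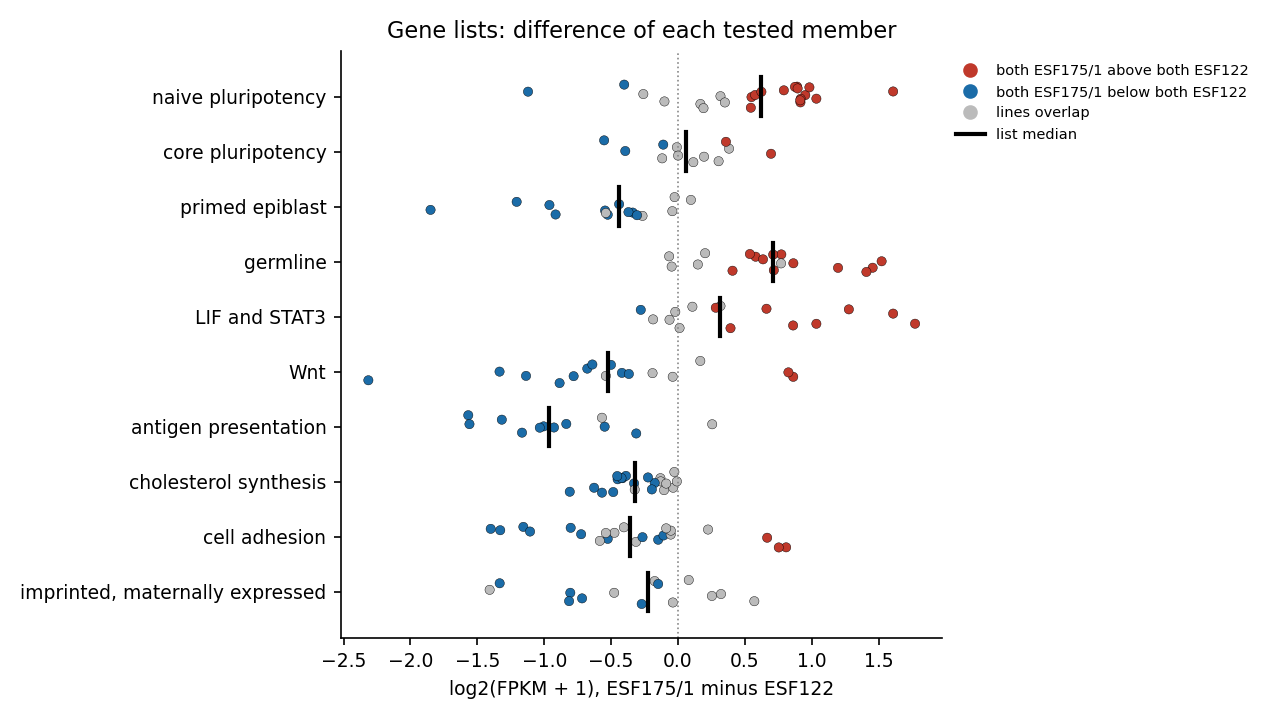
Difference between the lines in log2(FPKM + 1), ESF175/1 minus ESF122, for each tested member of 10 gene lists, with red points where both ESF175/1 libraries were above both ESF122 libraries, blue where both were below and grey where the lines overlapped. Black bars are list medians, at 0.62 for naive pluripotency, -0.44 for primed epiblast, 0.71 for germline and -0.97 for antigen presentation.

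Primed epiblast genes lay on the other side. Of 15 tested members, 10 were below ESF122 in both libraries and 0 above, with a median of -0.44. Otx2, the homeobox factor of the primed epiblast, was at 27.4 and 19.7 FPKM in ESF122 and at 11.1 and 8.18 FPKM in ESF175/1, a difference of -1.21 ± 0.24 with an adjusted p of 0.13 in limma. Dnmt3b, a de novo DNA methyltransferase, was at 194 and 185 FPKM against 123 and 81.0 FPKM. Fgf5 was at 1.64 and 8.61 FPKM against 0.545 and 0.263 FPKM, highest in replicate 2. Fgf5 and Cdh2 had passed the expression filter through ESF122 alone and so had to lie on this side to some extent. Without replicate 2 the list's median was -0.45, and without replicate 4 it was -0.41. Dnmt3a, the related methyltransferase, had the interval -0.60 to 0.52 and no separation.

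Germ cell genes were mostly above ESF122. Of 22 listed genes 17 were tested, 12 were above in both libraries and 0 below, and the median was 0.71. Dazl, an RNA-binding protein of germ cells, was at 6.32 and 5.81 FPKM in ESF122 and at 15.3 and 24.3 FPKM in ESF175/1. It was the member at least 2-fold apart in every library pair, with a difference of 1.52 ± 0.25 and an adjusted p of 0.084 in limma. Mov10l1, an RNA helicase of the piRNA pathway, was at 1.74 and 1.00 FPKM against 3.41 and 8.38 FPKM. Slc25a31, the ADP/ATP carrier of germ cells, was at 6.16 and 3.16 FPKM against 9.41 and 14.0 FPKM. Tuba3b, a testis alpha-tubulin, was at 1.95 and 0.767 FPKM against 3.02 and 8.14 FPKM, and may share reads with its close paralog Tuba3a.

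In most of these genes replicate 2 was lowest and replicate 4 highest. The list's median was 0.33 without replicate 2 and 1.01 without replicate 1, and 0.60 without replicate 4, so its size depended on which ESF122 library was kept. With the length correction 10 of the 17 were above and the median was 0.64.

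CpG-rich germ cell promoters, often with an E2f-type or an E-box element, are a known class held by DNA methylation and repressors in embryonic stem cells. For this reason the promoters of 4 members are shown, those with the largest differences among members with a single listed start. Each runs from 250 bases before to 50 bases after the gene's start (RefSeq, GRCm38.p6, the only build used for sequence; 5′ to 3′ on the gene's strand). Capitals mark matches to CACGTG or GCGGGA on either strand, the latter also read as TCCCGC.
Dazl, chr17:50293571-50293870, minus strand: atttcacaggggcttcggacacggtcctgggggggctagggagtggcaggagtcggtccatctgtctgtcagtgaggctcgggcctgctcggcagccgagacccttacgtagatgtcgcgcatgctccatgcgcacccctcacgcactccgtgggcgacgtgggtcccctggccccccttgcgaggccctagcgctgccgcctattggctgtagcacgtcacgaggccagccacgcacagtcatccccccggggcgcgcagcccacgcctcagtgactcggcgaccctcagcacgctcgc
Mov10l1, chr15:88982744-88983043, plus strand: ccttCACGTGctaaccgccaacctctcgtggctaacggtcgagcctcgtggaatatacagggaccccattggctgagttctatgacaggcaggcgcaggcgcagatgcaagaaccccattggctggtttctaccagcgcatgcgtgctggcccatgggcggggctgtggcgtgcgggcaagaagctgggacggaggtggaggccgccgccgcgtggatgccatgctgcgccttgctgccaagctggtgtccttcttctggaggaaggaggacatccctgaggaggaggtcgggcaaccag
Tuba3b, chr6:145615713-145616012, plus strand: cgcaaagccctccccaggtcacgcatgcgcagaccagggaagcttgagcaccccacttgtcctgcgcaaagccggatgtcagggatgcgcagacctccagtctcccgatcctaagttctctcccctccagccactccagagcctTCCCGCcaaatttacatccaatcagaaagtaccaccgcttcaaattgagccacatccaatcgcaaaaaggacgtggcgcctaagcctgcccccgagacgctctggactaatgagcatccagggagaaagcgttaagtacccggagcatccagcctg
Slc25a31, chr3:40708621-40708920, plus strand: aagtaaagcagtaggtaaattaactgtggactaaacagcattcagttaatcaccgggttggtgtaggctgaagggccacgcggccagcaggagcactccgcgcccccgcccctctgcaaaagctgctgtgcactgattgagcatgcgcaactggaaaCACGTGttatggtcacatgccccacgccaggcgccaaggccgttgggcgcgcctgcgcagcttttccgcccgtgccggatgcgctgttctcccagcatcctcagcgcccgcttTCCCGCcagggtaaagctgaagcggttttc

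Mov10l1 and Slc25a31 held 1 CACGTG each, Tuba3b and Slc25a31 held 1 GCGGGA match each, and Dazl held neither, with 28 CG dinucleotides in its window. Among the 21 listed germ cell genes with a promoter in the table, 12 (57.1%) held CACGTG, against 8.09% of 27025 genes and 12.4% of the 8139 tested genes that matched. Of the 11 matched germ cell genes above ESF122 in both libraries, 7 (63.6%) held it. Of the 42 matched genes at least 2-fold higher in every library pair, 4 (9.52%) did, close to the share of all tested genes. GCGGGA was in 42.9% of the list and in 42.1% of tested genes. The list was composed of genes of known germ cell regulation, and a match is no evidence of binding.

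**Figure D4:**
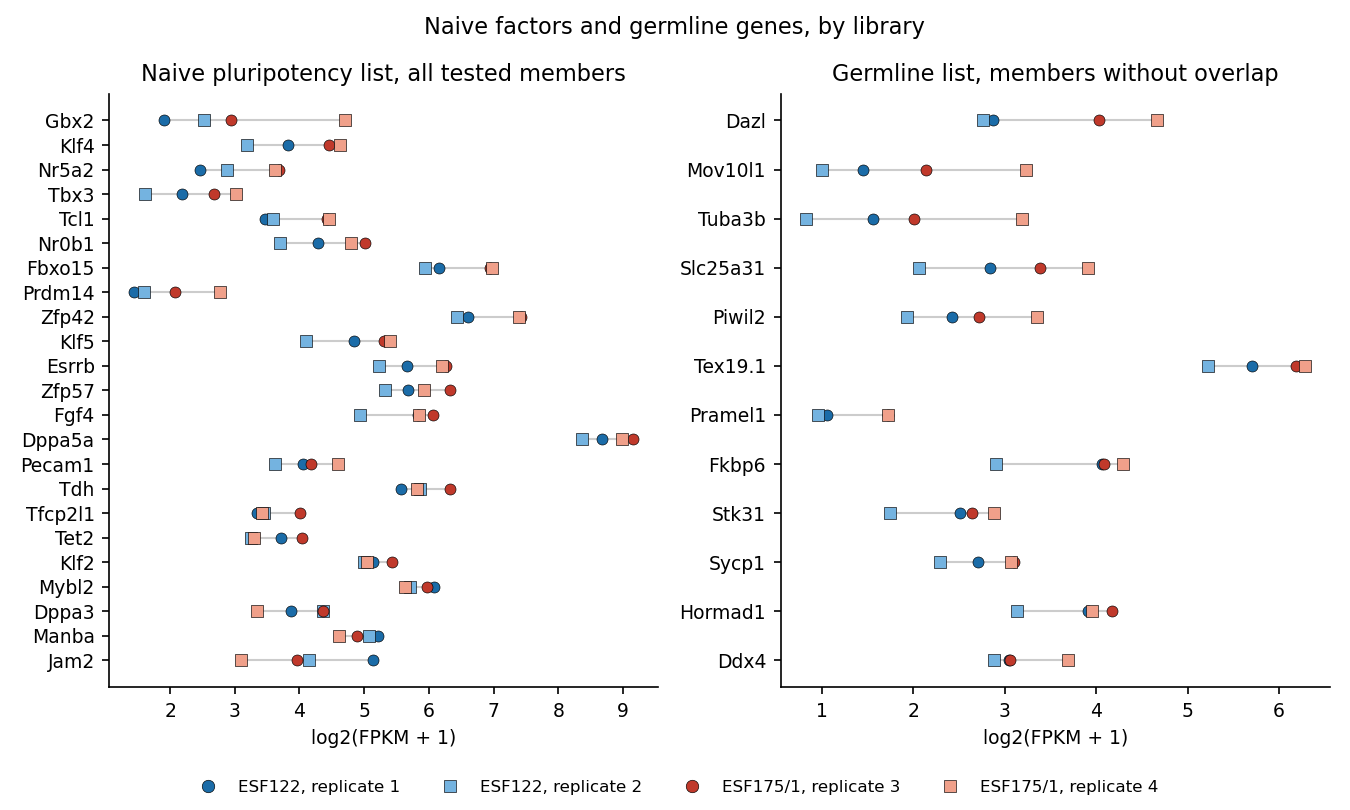
FPKM on the log2(FPKM + 1) axis of the 23 naive pluripotency genes (left) and of the 12 germ cell genes whose lines did not overlap (right), with 1 point per library and each panel sorted by the line difference. Gbx2 has the largest line difference among naive genes, carried by replicate 4, and Dazl is the top of the germ cell panel.

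More genes with germ cell roles were found, after their values were seen, among the 70 at least 2-fold higher in every pair. Gtsf1, a piRNA factor, was at 2.52 and 1.21 FPKM in ESF122 and at 9.47 and 16.9 FPKM in ESF175/1. Stag3, the meiotic cohesin subunit, was at 5.59 and 2.65 FPKM against 18.5 and 20.0 FPKM, and Syce1, a synaptonemal complex protein, at 6.41 and 4.13 FPKM against 15.3 and 22.7 FPKM. Their adjusted p-values in limma were 0.064, 0.064 and 0.084. Ccnb1ip1, the factor of meiotic crossing over, went the other way. It was among the 81 lower genes, at 17.0 and 16.9 FPKM in ESF122 against 2.81 and 4.63 FPKM in ESF175/1. Of the 70 genes, 31 were under 1 FPKM in all 4 mEpiSC libraries. In 41 all mEpiSC libraries were nearer to ESF122, in 17 nearer to ESF175/1, and 12 were mixed. These counts were not made over all tested genes. Of the 81 lower genes, 12 were under 1 FPKM in all mEpiSC libraries, 31 had all mEpiSC libraries nearer to ESF175/1 and 28 nearer to ESF122.

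The X chromosome held 13 of the 70 higher genes (18.6%) and 5 of the 81 lower genes (6.17%), against 411 of all tested genes (3.63%). Of the 70 and the 81 genes, 29 and 19 had passed the expression filter only through the line in which they were high. The 13 higher genes on the X chromosome included Usp26 and, chosen after their values were seen, Rhox13 and Xlr3a. Rhox13, a homeobox gene of germ cells, was at 4.53 and 2.58 FPKM against 10.6 and 22.1 FPKM. Xlr3a, an X-linked lymphocyte-regulated gene, was at 1.38 and 0.886 FPKM against 5.45 and 20.2 FPKM. Xlr3a shares 47.8% of its windows with other transcripts, Xlr3b 55.7% and Rhox2a 93.4%, so that copies of these families are not told apart. Over all 411 tested genes of the X chromosome the median was -0.05, with 90 genes above ESF122 in both libraries and 105 below.

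Y-linked genes were detected in both lines. Ddx3y, an RNA helicase on the Y chromosome, was at 21.9 and 20.0 FPKM in ESF122 and at 14.8 and 12.7 FPKM in ESF175/1. Eif2s3y, a Y-linked translation factor, was at 46.6 and 49.0 FPKM against 45.7 and 26.0 FPKM. Of the Y genes, 4 of 5 tested were below ESF122 in both ESF175/1 libraries. Replicate 4 had the lowest value for 4 of those 5. Xist, the RNA that coats the inactive X, was at 1.66 and 0.488 FPKM against 1.10 and 0.143 FPKM, with overlap.

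Components of the LIF pathway were mostly above ESF122, with 8 of 15 tested members above in both libraries, 1 below and a median of 0.32. Lifr, the LIF receptor, was at 6.38 and 4.86 FPKM against 10.3 and 8.59 FPKM. Stat3 itself was at 18.1 and 11.9 FPKM against 18.6 and 20.6 FPKM. Among its targets, Socs3, the feedback inhibitor of the receptor, was at 21.0 and 4.21 FPKM against 27.9 and 45.3 FPKM, and the kinase gene Pim3 at 16.9 and 11.6 FPKM against 22.9 and 54.5 FPKM. Socs3 had a difference of 1.77, but its interval from -0.23 to 3.78 included 0. The list's median was 0.17 without replicate 2 and 0.51 without replicate 1, and 3 members, Klf4, Gbx2 and Tfcp2l1, are also in the naive list.

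The FGF list was split, with 6 of 20 members above, 5 below and a median of 0.04, and -0.03 without replicate 4. Of the 20 members, 1 had passed the expression filter through 1 line alone and so had to differ to some extent. Spry4, a feedback inhibitor of FGF signalling, was at 9.98 and 5.95 FPKM against 22.1 and 23.8 FPKM, at least 2-fold apart in every pair, with an adjusted p of 0.1 in limma. Fgf15, a ligand, was at 6.55 and 10.1 FPKM against 2.81 and 3.27 FPKM, and the immediate-early gene Fos was at 19.3 and 20.7 FPKM against 13.4 and 5.95 FPKM. The ligand, the inhibitor and the early response gene therefore did not go one way.

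Wnt genes were mostly below ESF122, with 10 of 16 tested members below in both libraries, 2 above and a median of -0.52. The ligand Wnt8a was at 8.31 and 39.3 FPKM against 3.34 and 2.50 FPKM, and the target Axin2 at 2.75 and 7.49 FPKM against 2.09 and 1.13 FPKM. Both were highest in replicate 2. The transcription factor genes Tcf7 and Tcf7l1 were instead lowest in replicate 4, Tcf7 at 22.9 and 29.1 FPKM against 19.5 and 10.9 FPKM. Wnt3 and Wnt5b had passed the expression filter through ESF122 alone. Without replicate 4 the list's median was -0.19. The receptor Fzd5 and the Wnt deacylase Notum were above ESF122, Fzd5 at 12.9 and 8.30 FPKM against 19 and 20.3 FPKM. The Nodal list had 3 of 18 members above and 3 below, with a median of -0.02 that lay between -0.14 without replicate 4 and 0.04 without replicate 3. The BMP list had 2 of 11 above and 2 below, with a median of -0.18. Without replicate 2 its median was 0.14, with 5 above and 2 below, and without replicate 3 it was 0.04.

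Antigen presentation genes were mostly below ESF122. Of 12 tested members 10 were below ESF122 in both libraries and 0 above, with a median of -0.97. B2m, the light chain of class I molecules, was at 93.3 and 41.8 FPKM in ESF122 and at 31.6 and 13.1 FPKM in ESF175/1. Tapbp, which loads peptides on class I molecules, was at 16.6 and 21.0 FPKM against 9.05 and 6.67 FPKM, with a difference of -1.17 ± 0.23 and an adjusted p of 0.13 in limma. Tap2, a subunit of the peptide transporter, was at 2.65 and 4.83 FPKM against 0.974 and 0.736 FPKM, and the immunoproteasome subunit Psmb8 at 4.25 and 10.5 FPKM against 1.49 and 1.80 FPKM. Tap2 and H2-M3 had passed the expression filter through ESF122 alone. The median was -0.84 to -1.12 with 1 library left out and -0.48 to -1.17 over all 15 other settings, nearest to 0 with a pseudocount of 5.

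The interferon-induced genes Isg15 and Oasl2, outside that list and chosen after their values were seen, were among the 81 genes at least 2-fold lower in every pair. Interferon-induced genes were not counted as a set. The DNA sensor Aim2 went the other way, at 4.21 and 3.87 FPKM in ESF122 and at 22.3 and 17.9 FPKM in ESF175/1. Isg15 was at 31.4 and 68.3 FPKM against 14.2 and 9.58 FPKM, and Oasl2 at 18.5 and 30.2 FPKM against 6.63 and 3.30 FPKM. Fibroblasts also express class I genes, and B2m was highest in the library with the highest fibroblast markers, replicate 1, while Tapbp, Tap2, Psmb8, Isg15 and Oasl2 were highest in replicate 2. The part of other cells in these values was not tested.

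Cholesterol synthesis genes differed little but in 1 direction, with 13 of 21 members below ESF122, 0 above and a median of -0.32. Sqle, the squalene epoxidase, was at 58.3 and 59.9 FPKM against 43.1 and 40.9 FPKM. Without replicate 2 the median was -0.19. Cell adhesion genes were below in 10 of 22 and above in 3, with a median of -0.36, -0.12 without replicate 2 and -0.19 without replicate 4. Cdh2, Cldn3 and Cd44 had passed the expression filter through ESF122 alone. Cldn7, a tight junction claudin, was at 21.1 and 21.6 FPKM against 9.78 and 5.66 FPKM, and its relative Cldn6 at 44.7 and 52.4 FPKM against 25.9 and 17.3 FPKM. Cdh1, E-cadherin, differed by -0.15. Among p53 targets, 1 of 16 was above and 4 were below, with a median of -0.10. Without replicate 3 the median was -0.31, with 10 below and 3 of them past limma's test, and without replicate 1 it was -0.003. Cdkn1a, the p21 inhibitor of the cell cycle, was at 66.6 and 66.8 FPKM against 33.8 and 25 FPKM, with an adjusted p of 0.11 in limma.

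Maternally expressed imprinted genes were below ESF122 in 6 of 14 and above in 0, with a median of -0.22. Without replicate 1 the median was -0.06, with 4 above and 6 below, and without replicate 3 it was -0.34. Of the Dlk1-Dio3 domain, the long noncoding RNA Meg3 was at 52.5 and 64.2 FPKM in ESF122 and at 39.4 and 12.6 FPKM in ESF175/1. Rian was at 61.6 and 74.5 FPKM against 43.4 and 33.9 FPKM, and Mirg at 12.8 and 17.4 FPKM against 9.15 and 7.09 FPKM. All 3 were detected in every library and lowest in replicate 4. H19 and Igf2, neighbours with opposite imprints, were both highest in replicate 1, H19 at 50.5 and 7.95 FPKM against 12.4 and 3.88 FPKM and Igf2 at 33.1 and 5.39 FPKM against 7.47 and 1.92 FPKM. Both are also abundant in embryonic fibroblasts. Among 20 paternally expressed genes 3 were above and 5 below, among them Peg3, a zinc finger gene, at 11.5 and 15.4 FPKM against 6.45 and 4.00 FPKM, and Peg12, above ESF122, at 1.11 and 1.22 FPKM against 2.75 and 6.14 FPKM. Of the 20 genes, 2 had passed the expression filter through 1 line alone and so had to differ to some extent. The median of the paternal list was -0.12, with -0.28 without replicate 1 and -0.01 without replicate 2.

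The direction of several other lists depended on which library was kept. Glycolysis genes had 4 of 24 above, 2 below and a median of 0.09, but 17 above and 0.31 without replicate 1, 12 above and 0.29 without replicate 3, and 11 below and -0.09 without replicate 2. The amino acid stress response had 0 of 19 above, 2 below and a median of -0.07. Without replicate 3 it had 13 above, 4 of them past limma's test, and a median of 0.27, and without replicate 4 it had 16 below and a median of -0.21. Without replicates 1 and 2 in turn its median was 0.01 and 0.04. Metal handling had 2 of 13 above, 2 below and a median of 0.06, which was -0.15 without replicate 4, -0.12 without replicate 2 and 0.23 without replicate 1. Of these 13 genes, 1 had passed the expression filter through 1 line alone and so had to differ to some extent. DNA methylation had 3 of 12 above, 2 below and a median of 0.07, which was -0.07 without replicate 2, 0.17 without replicate 1 and 0.13 without replicate 4. The Hox list had 1 tested member, whose lines overlapped. The strain-variable list had 1 of 4 above, 1 below and a median of -0.01, between -0.08 without replicate 4 and 0.05 without replicate 3. Nnt, an enzyme of mitochondrial NADPH that is deleted in part in some mouse strains, was detected in all 4 libraries at 13.8 and 15.8 FPKM against 9.72 and 12.4 FPKM.

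Markers of other cell types were uneven among the libraries of a line, and a smaller share of such cells cannot be told apart from less RNA per cell in bulk samples. The 21 primitive streak and mesendoderm genes summed to 16.6 and 115 FPKM in ESF122 and to 10.0 and 14.9 FPKM in ESF175/1. In 17 of the 21, replicate 2 had the highest value. T, the streak factor Brachyury, was at 1.95 and 38.8 FPKM against 2.05 and 2.94 FPKM, Fgf8 at 1.98 and 21.6 FPKM against 1.58 and 3.00 FPKM, and Cer1 at 0.598 and 6.29 FPKM against 0.632 and 0.0621 FPKM. Of the 21 genes 7 were tested, 3 of them were below ESF122 in both libraries and 0 above, and the median of -1.33 became -0.09 without replicate 2. Wnt3 and Foxj1, 2 of those 3, had passed the expression filter through ESF122 alone. Fst, the Activin antagonist follistatin, was the exception at least 2-fold lower in every pair, at 4.93 and 19.9 FPKM against 1.18 and 0.723 FPKM, with an adjusted p of 0.23 in limma. Msgn1 was listed at 0 in all 4 libraries.

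The 24 fibroblast genes summed to 636 and 231 FPKM in ESF122 and to 314 and 230 FPKM in ESF175/1, and 21 of them were highest in replicate 1. Col1a1, the main fibrillar collagen, was at 78.4 and 9.71 FPKM against 13.9 and 0.481 FPKM, so that each line held 1 high and 1 low library. Of 20 tested members 4 were below ESF122 in both libraries and 1 above, with a median of -1.28. It was -0.46 without replicate 1, -0.79 without replicate 4 and -2.22 without replicate 2. Genes of the 2-cell-like state were highest in replicate 3 in 9 of 15 cases, with Zscan4d at 1.46 and 3.33 FPKM against 11 and 3.55 FPKM. The Zscan4 genes of this list share 49.6% (Zscan4d) to 95.3% (Zscan4f) of their windows with other transcripts. Copies of that family are not told apart, so the 15 cases are not separate measurements. The 5 tested members of the 2-cell-like list had 3 above, 0 below and a median of 0.86, 0.33 without replicate 3 and 1.54 without replicate 4. With the length correction 1 was above and the median was 0.84. Primitive endoderm markers had 1 of 6 above and 3 below, with a median of -0.47, and -0.10 without replicate 1. Trophoblast markers had 0 of 7 on either side, with a median of -0.48, which was -0.01 without replicate 1, 0.19 without replicate 2, 0.003 without replicate 3 and -0.28 without replicate 4. Neuroectoderm markers had 2 of 4 above and 1 below, with a median of 0.23. That median was -0.09 without replicate 1, 0.54 without replicate 2, 0.62 without replicate 3 and -0.13 without replicate 4. Lama1, a laminin chain, was at 0.555 and 0.403 FPKM against 2.12 and 2.59 FPKM, at least 2-fold higher in every pair with an adjusted p of 0.09 in limma. Pax6, an early neural factor, was at 0.293 and 0.307 FPKM against 1.36 and 1.64 FPKM. Lama1 and Pax6 had passed the expression filter through ESF175/1 alone.

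**Figure D5:**
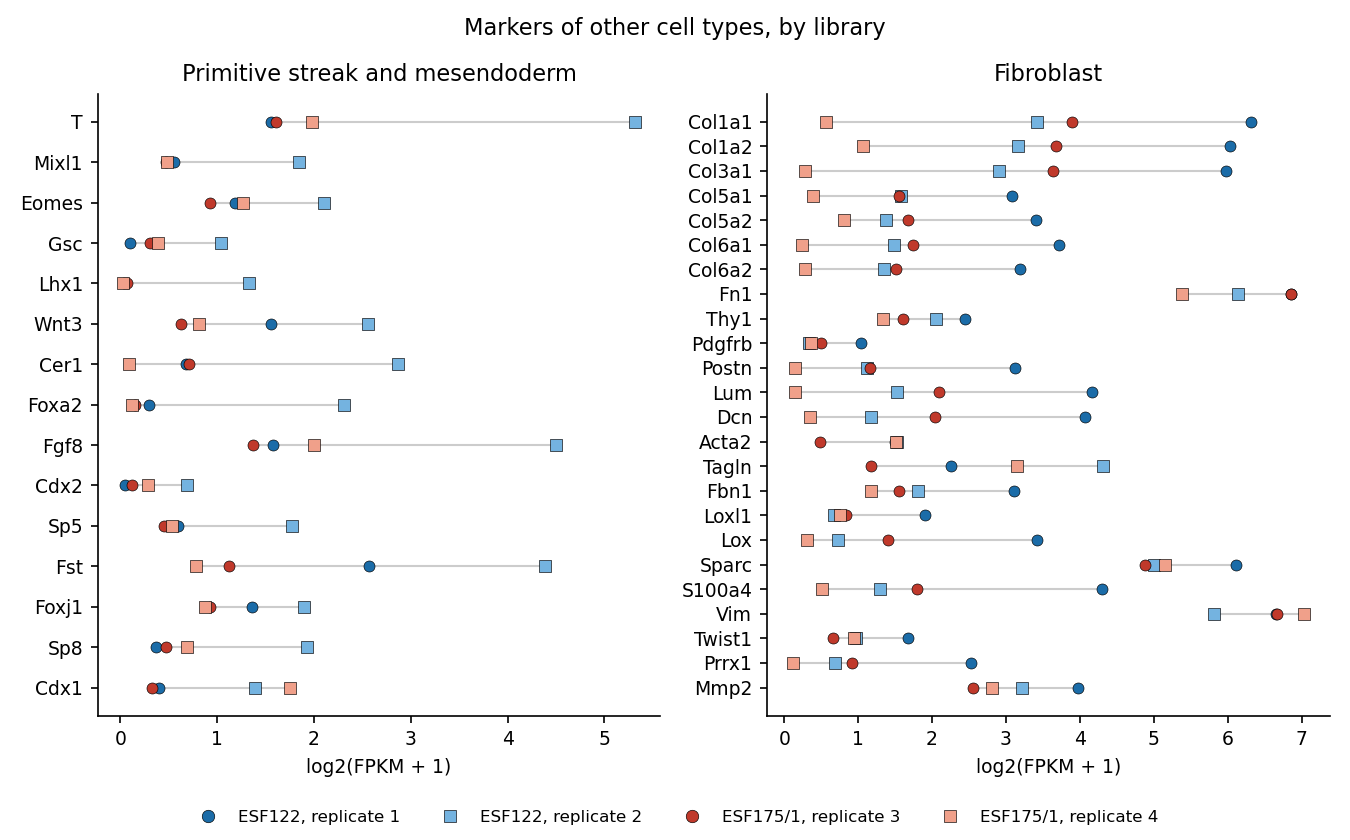
FPKM on the log2(FPKM + 1) axis of primitive streak and mesendoderm markers (left) and fibroblast markers (right) that reached 0.5 FPKM in at least 1 mESC library, with 1 point per library. Replicate 2 is alone at the right for most streak markers, and replicate 1 for most fibroblast markers.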

How the data were processed

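Polyadenylated RNA was prepared with a TruSeq kit, per the labels' protocols. The authors deposited 1 table of FPKM per gene for each library, with 23699 entries. Per the submitters' processing notes, reads were handled by TopHat2 2.0.6 and by Cufflinks 2.0.2 with the mm9 build. Annotation, settings and strand handling were not given in the sources used here, so overlapping and antisense genes cannot be told apart. Symbols at several loci (248 symbols, 712 entries) were left out. Depth was estimated from the fragments that FPKM and their deposited intervals imply, and of low values (under 100 fragments) 80.4% to 80.8% came out whole, at a tolerance of 0.05. No column of a sample's values outside the mapped ones was found (0).

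FPKM were tested as log2(FPKM + 1) with limma 3.58.1 under R 4.3.3 (its trend and robust options, the latter through statmod 1.5.0), fitted to the 4 mESC libraries with 1 mean per line, with Benjamini-Hochberg adjustment over all tested genes and a threshold of 0.05. The script was tested on simulated data. The length correction was a loess fit (span 0.3) of each library's deviation on log2 transcript length. Lengths and shared 50-base windows came from GRCm38 (GENCODE vM21), promoters from RefSeq, and gene positions in mm9 from the tables. The members and lists were chosen with earlier results of these data known. Named genes were up to 15 a direction with the largest difference past the test, a mean of at least 5 FPKM, at least 2-fold in every pair, status OK and a symbol other than those of predicted genes or small RNAs, together with on/off genes, list members past the test, all sex-chromosome, fibroblast and streak genes, 20 fixed genes and the 5 most abundant genes within 2-fold. Some named genes are not reported here. Other genes, in the lists described, are named as examples of their list after their values were seen. Other settings were the length correction, quantile normalization, median ratio scaling, pseudocounts of 5 and 0.1, a filter at a mean of 5 FPKM or none, status OK, no trend, all 8 libraries, voom on implied fragments and leaving out each library.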

Additional observations from a re-analysis of the deposited data

How the results depend on the processing

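No paired analysis was possible because ESF122 holds replicates 1 and 2 and ESF175/1 replicates 3 and 4, so the lines share no number. Each of the 42 calls kept its direction in all of the 15 other settings in which it was tested. All 42 were at least 2-fold apart in every library pair. Settings such as leaving out a library, another pseudocount or another filter therefore could not turn the direction. The counts moved (higher and lower genes at an adjusted p under 0.05 in limma, the 2-fold counts being the same unless given). They were 2 and 3 with no filter, 11 and 6 with median ratio scaling, 8 and 5 with quantile normalization, 16 and 9 with the length correction, 13 and 9 without trend and robust options, 9 and 3 with voom, and 16 and 17 with a pseudocount of 5 (14 and 13 at 2-fold). With all 8 libraries sharing 1 estimate of spread they were 70 and 69 (66 and 66 at 2-fold), and 40 of the 42 calls were among them. Leaving out 1 library gave 19 to 474 higher and 17 to 494 lower genes, and 19 to 280 and 17 to 393 at 2-fold. The highest counts came without replicate 3, when the lone replicate 4 is assumed to vary like ESF122, and without replicate 1 there were 41 and 69.

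Genes at least 2-fold apart in every pair numbered 123 higher and 172 lower with a pseudocount of 0.1, 20 and 28 with 5, 39 and 50 at a mean of at least 5 FPKM, 144 and 172 with voom, and 84 to 260 and 115 to 403 with 1 library left out, where fewer pairs have to pass. The median of all genes moved by no more than 0.05 in any setting. With 2 libraries a line, the smallest differences that passed were 1.59 and -1.57, and levels of genes with shared sequence depend on how reads were divided.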
